A study of Mus musculus with 12 samples.

Results

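The 39 Hox genes of the mouse were followed in 12 colon tumours, as all rows of the count table whose symbol is Hox, a cluster letter from a to d and a paralogue number, with nothing after the number. They were 39 of 24062 genes in the table, with 11 members in cluster a, 10 in b, 9 in c and 9 in d. The symbol alone set which genes were members, and the choice was made with earlier results of these data known. Of the 39, 28 passed the filter on low counts and were tested, 4 had reads but did not pass, and 7 had 0 reads in every library. The tumours came from bone marrow chimeras, mice whose blood-forming cells are replaced by those of a donor, on the Balb/c background. Hosts were wild type (WT) or lacked St2 (St2-/-), the gene of the interleukin-33 receptor, and each group is written as marrow => host: WT => WT, St2-/- => WT, WT => St2-/- and St2-/- => St2-/-, with 3 libraries per group. Every host, controls included, had received 2 doses of 5 Gy of irradiation and a marrow graft, was left for 8 weeks and then received the carcinogen azoxymethane (AOM) weekly for 6 weeks. Tumour collection followed the last injection by 13 or 14 weeks, in 11 male mice and 1 female mouse (WT => St2-/- replicate 3). The labels give neither the age of the mice nor the place of each tumour along the colon, and host cells that survive irradiation remain in such chimeras.

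Hox genes encode homeodomain transcription factors that tell cells where they lie along the axis from head to tail. The order of the genes within a cluster follows the order of their domains along the body, so that low paralogue numbers act toward the head and high numbers toward the tail. In the adult gut the genes with the highest numbers mark the colon and rectum, in the epithelium and in the muscle and stroma beneath it. Polycomb and Trithorax proteins keep the clusters silent or active, retinoic acid and the caudal (Cdx) factors act upstream of them, and Pbx and Meis proteins bind DNA together with HOX proteins. The members are grouped below as anterior (paralogues 1 to 3), central (4 to 8) and posterior (9 to 13).

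Promoters of the distal HoxD genes are shown first, because Hoxd12, Hoxd10 and Hoxd11 had the widest spread of all tested members and Hoxd13 was lowest in the same tumour as Hoxd10 and Hoxd11. They are the 250 bases before the RefSeq transcription start (GRCm38.p6, plus strand of chromosome 2), written 5′ to 3′, with CpG dinucleotides in capitals. The windows are chr2:74667975-74668224 for Hoxd13, chr2:74674763-74675012 for Hoxd12, chr2:74682073-74682322 for the downstream start of Hoxd11 and chr2:74691641-74691890 for Hoxd10.
Hoxd13: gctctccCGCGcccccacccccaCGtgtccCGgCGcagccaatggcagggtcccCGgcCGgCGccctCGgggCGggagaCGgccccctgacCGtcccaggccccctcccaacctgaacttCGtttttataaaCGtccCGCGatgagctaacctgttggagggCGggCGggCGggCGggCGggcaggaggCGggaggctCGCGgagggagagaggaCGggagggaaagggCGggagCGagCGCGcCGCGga
Hoxd12: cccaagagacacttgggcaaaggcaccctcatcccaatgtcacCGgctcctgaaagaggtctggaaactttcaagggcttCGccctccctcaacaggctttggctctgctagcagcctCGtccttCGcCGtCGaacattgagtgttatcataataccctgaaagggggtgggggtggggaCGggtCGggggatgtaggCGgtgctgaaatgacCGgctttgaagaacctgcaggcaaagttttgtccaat
Hoxd11: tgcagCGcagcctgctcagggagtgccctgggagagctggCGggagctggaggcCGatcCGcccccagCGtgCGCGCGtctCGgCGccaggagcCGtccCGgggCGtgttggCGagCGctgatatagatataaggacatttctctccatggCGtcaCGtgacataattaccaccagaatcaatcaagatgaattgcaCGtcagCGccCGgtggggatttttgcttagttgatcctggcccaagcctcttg
Hoxd10: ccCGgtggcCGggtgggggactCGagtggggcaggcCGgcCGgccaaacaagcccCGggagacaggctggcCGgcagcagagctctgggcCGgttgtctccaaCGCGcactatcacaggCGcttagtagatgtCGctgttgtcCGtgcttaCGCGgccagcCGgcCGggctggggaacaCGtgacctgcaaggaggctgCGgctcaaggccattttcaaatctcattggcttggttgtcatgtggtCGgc
The Hoxd13 window held 31 CpG and the Hoxd12 window held 10, against 20 each for Hoxd11 and Hoxd10. The upstream start of Hoxd11, not printed, had 2 CpG in its window. The RefSeq table had 24 windows for 22 of the 39 members. Their median CpG count was 12.5, against 6 over all 32851 windows, and their median GC content was 58.6%, against 52.4%.

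The 3 letter strings CCAATAAA, CCATAAA and CTCGTAAA, which HOX proteins of paralogue group 13 are known to bind, were searched on both strands of all windows, and no string lies within another. CCAATAAA was in 0 of the 24 Hox windows and in 1.02% of all windows. CCATAAA was in 1 Hox window, that of Hoxd4, and in 2.43% of all windows. CTCGTAAA was in 1 Hox window, that of Hoxb8 (chr11:96281655-96281904, plus strand), and in 0.11% of all windows. The Hoxb8 window is printed because this member had the smallest p of the 28 between host genotypes, and its capitals mark the match.
Hoxb8: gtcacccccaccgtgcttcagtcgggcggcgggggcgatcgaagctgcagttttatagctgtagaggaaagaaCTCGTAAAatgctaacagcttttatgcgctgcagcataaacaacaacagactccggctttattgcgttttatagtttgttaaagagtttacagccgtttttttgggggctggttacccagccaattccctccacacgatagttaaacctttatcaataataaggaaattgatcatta
A match describes the letters alone, and binding was not measured.

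The Hox genes expressed in these tumours were dominated by paralogue group 13. All 11 HoxA members, 9 of 10 HoxB members and 8 of 9 HoxD members passed the filter, and none of the 9 HoxC members did. By region, 6 of 8 anterior, 11 of 15 central and 11 of 16 posterior members passed. A mean CPM (reads scaled to a common depth) of at least 1 was reached by 26 members. Levels between genes are compared as CPM per kb of exon, the mean ± SD over 12 libraries. Hoxb13, which patterns the tail end of the gut and the prostate, was highest at 160.8 ± 23.2. Hoxd13, which acts in the hindgut and the digits, followed at 114.2 ± 40.9. Next came Hoxb9 at 41.9 ± 10.5, Hoxa10 at 26.2 ± 3.78, Hoxa9 at 24.2 ± 5.16, Hoxa5 at 16.4 ± 2.87 and Hoxd10 at 13.3 ± 7.15 CPM per kb. Within their SDs, Hoxa10 and Hoxa9 were not distinct per kb of exon. The same 5 genes led when coding length or unshared exon bases were used, but coding length changed their order. Per kb of coding length Hoxa9 stood at 166, above Hoxb9 at 144 and Hoxa10 at 68.2. Of all reads on Hox genes, 54.5% fell on Hoxb13 and Hoxd13.

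**Figure D1:**
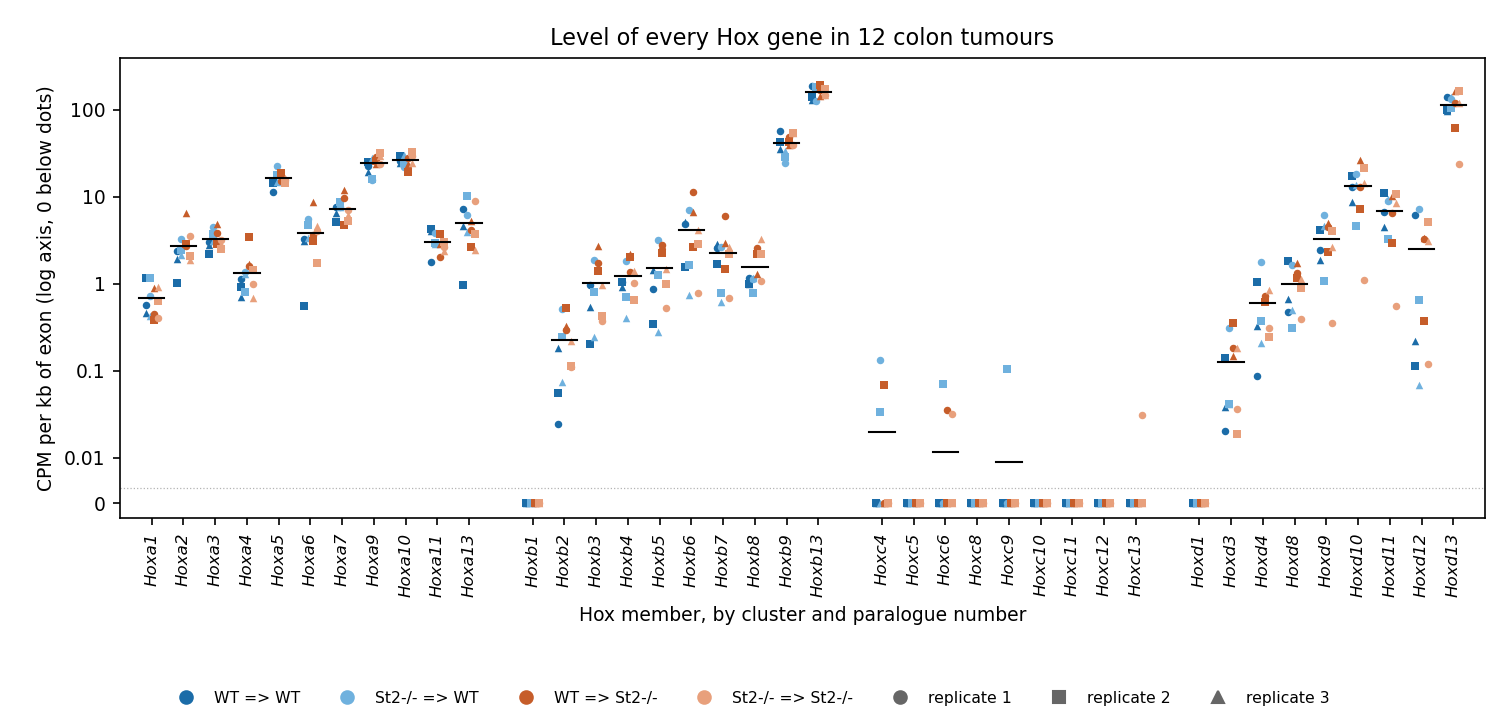
Level of each of the 39 Hox members in CPM per kb of exon (log axis, with 0 drawn below the dotted line). Points are the 12 libraries, colour is the group, shape the replicate and the black line the mean over 12 libraries. Hoxb13 (160.8) and Hoxd13 (114.2) are highest, and the HoxC members lie at or near 0.

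The posterior members held between 84.6% and 92.9% of the summed Hox level per kb in every library. Central members held 6.00% to 12.8% and anterior members 1.06% to 2.93%. Paralogue group 13 alone held 57.0% to 69.7%. The bias toward high numbers was not a smooth rise within each cluster. In HoxA, Hoxa5, known for its part in gut and lung development, stood at 16.4 CPM per kb, above Hoxa6 at 3.86 and Hoxa7 at 7.33, and Hoxa11 (3.03) and Hoxa13 (5.05) stood below Hoxa9 and Hoxa10. In HoxD, Hoxd12 stood at 2.50, between Hoxd11 at 6.95 and Hoxd13 at 114.2.

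The HoxC cluster was almost without reads, with 15 in all 12 libraries against 166730 for all Hox genes. Hoxc4 had 7 reads in 3 libraries, Hoxc6 had 4 reads in 3 libraries, Hoxc9 had 3 reads in 1 library and Hoxc13 had 1 read. Hoxc5, Hoxc8, Hoxc10, Hoxc11 and Hoxc12 had 0, as had Hoxb1 and Hoxd1, which pattern the hindbrain and the early axis. A count of 0 allows up to 3 reads, which is 0.229 to 0.290 CPM in these libraries, for counting error only. Hotair, the noncoding RNA of the HoxC cluster, had 2 reads in all.

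Hoxb13 was the steadiest of the abundant members by its range, 1.53-fold from lowest to highest library. It stood at 418, 312 and 288 CPM in replicates 1 to 3 of WT => WT, 280.3, 400.1 and 391 in St2-/- => WT, 378, 429 and 318 in WT => St2-/- and 330.0, 387 and 326 in St2-/- => St2-/-. The 4 groups overlapped. Hoxa10, known from the uterus and from blood progenitors, was also steady, at 84.7, 97.6 and 79.8 CPM in replicates 1 to 3 of WT => WT, 72.5, 81.2 and 98.6 in St2-/- => WT, 90.4, 64.0 and 78.4 in WT => St2-/- and 96.7, 107 and 79.2 in St2-/- => St2-/-. Its within-group SD was 0.21 on the log2 CPM scale, below the median of all tested genes.

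The distal HoxD genes set 1 tumour apart. Hoxd13 stood at 348, 250.3 and 242 CPM in replicates 1 to 3 of WT => WT, 329.9, 259.8 and 345 in St2-/- => WT, 295, 152 and 413 in WT => St2-/- and 59.5, 406 and 301 in St2-/- => St2-/-. The library St2-/- => St2-/- replicate 1 was lowest at 59.5 CPM, and the next lowest library had 152 CPM. Hoxd11, which acts in limb and kidney, stood at 28.4, 46.7 and 18.8 CPM in replicates 1 to 3 of WT => WT, 37.7, 13.9 and 40.2 in St2-/- => WT, 27.2, 12.5 and 43.0 in WT => St2-/- and 2.37, 44.9 and 35.6 in St2-/- => St2-/-. In that same library Hoxd11 was at 2.37 CPM, 15.0 times below the median of the other 11. Hoxd10, a posterior limb and spinal cord gene, stood at 23.6, 31.8 and 15.8 CPM in replicates 1 to 3 of WT => WT, 33.7, 8.49 and 24.7 in St2-/- => WT, 23.6, 13.0 and 47.7 in WT => St2-/- and 1.99, 38.9 and 26.1 in St2-/- => St2-/-. Replicate 1 of St2-/- => St2-/- was again lowest, 12.4 times below the median of the others. Hoxd9 was 11.3 times below the median of the others there and Hoxd13 5.05 times below. In total, 4 of the 8 tested HoxD members had their lowest value in this tumour, and HoxD made up 8.37% of its summed Hox level per kb, against 18.4% to 40.7% in the other 11. Hoxd12 was at 0.306 CPM there, with 2 libraries below it, 25.5 times below the median of the others, and in HoxB the central members Hoxb6 (5.31 times below) and Hoxb7 (3.69 times below) were second lowest. Among the other members of paralogue group 13, Hoxa13 had 22.3 CPM, the second highest library, and Hoxb13 had 330.0 CPM. The library had a usual depth of 12307436 gene counts, and its share of alignments that were not unique, 48.9%, was the highest of the 12. Whether that share has a part in the HoxD values was not tested.

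Hoxd12, between Hoxd11 and Hoxd13 in the cluster, varied more than any other member. It stood at 15.6, 0.290 and 0.557 CPM in replicates 1 to 3 of WT => WT, 18.4, 1.63 and 0.173 in St2-/- => WT, 8.38, 0.957 and 8.61 in WT => St2-/- and 0.306, 13.1 and 7.81 in St2-/- => St2-/-. The values fell into 6 libraries from 0.173 to 1.63 CPM and 6 from 7.81 to 18.4 CPM, a 106-fold range. Each group held both kinds: WT => WT and St2-/- => WT had 1 high library each, and WT => St2-/- and St2-/- => St2-/- had 2 each. Hoxd13 did not divide the libraries in this way, and the ratio of Hoxd13 to Hoxd12 in CPM ran from 17.9 to 1990. On the log2 CPM scale the within-group SD of Hoxd12 was 2.54, at the 99.97th percentile of the 15060 genes tested. Both low and high libraries included tumours taken at 13 and at 14 weeks.

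**Figure D2:**
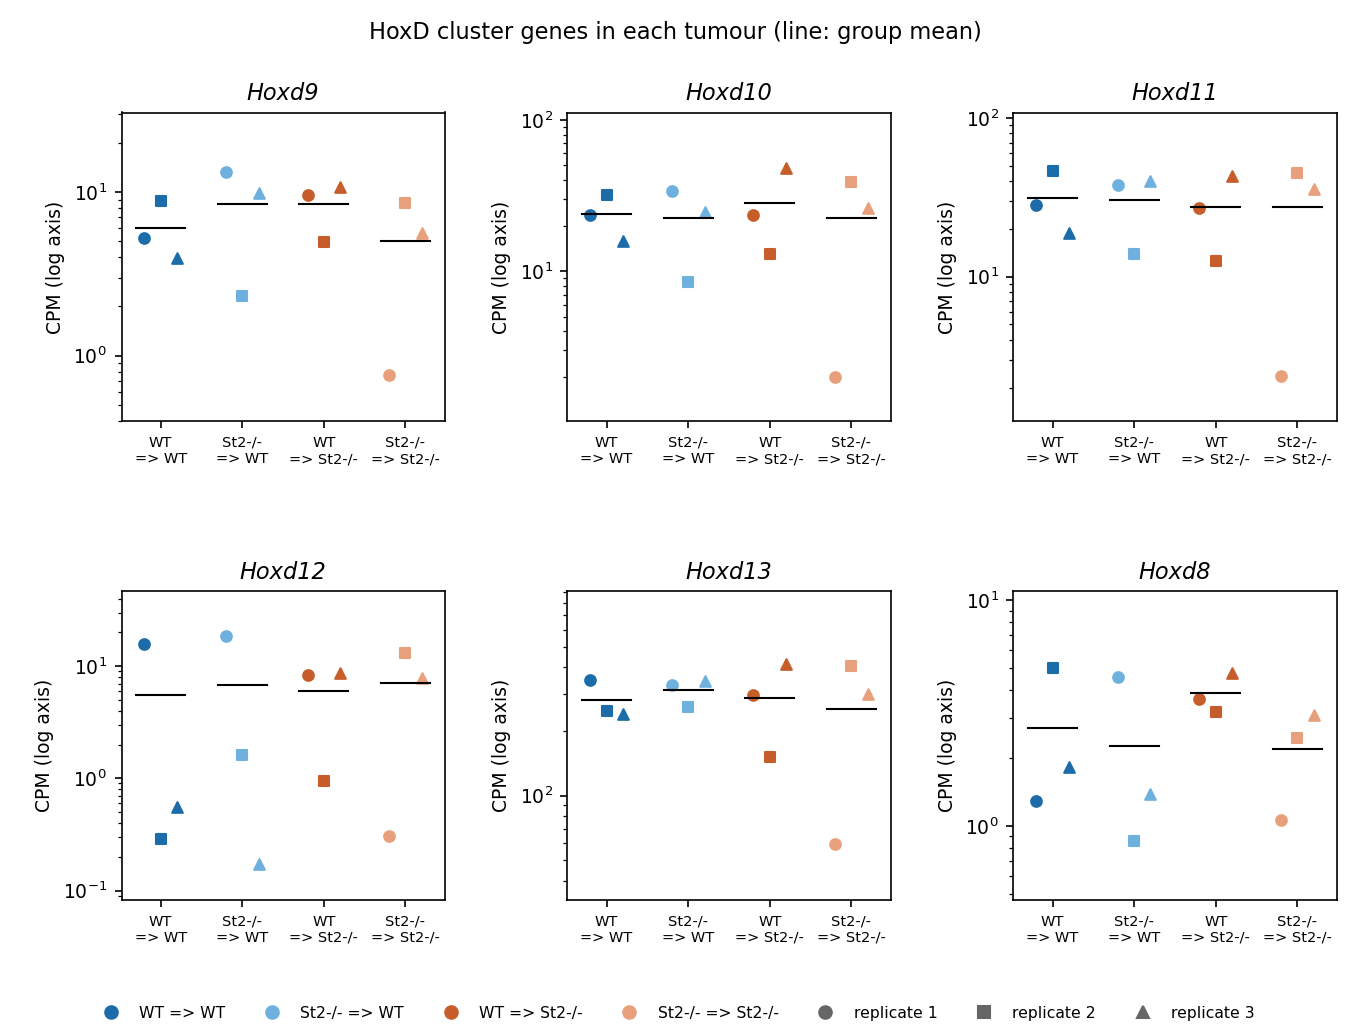
CPM (log axis) of 6 HoxD genes in each tumour, with replicates 1 to 3 side by side in each group and a line at the group mean. St2-/- => St2-/- replicate 1 lies lowest for Hoxd9, Hoxd10, Hoxd11 and Hoxd13, and Hoxd12 splits into 6 low and 6 high libraries.

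Hoxa13, the HoxA member of paralogue group 13, marked another tumour. It stood at 17.9, 2.42 and 11.5 CPM in replicates 1 to 3 of WT => WT, 15.2, 25.5 and 9.63 in St2-/- => WT, 10.2, 6.61 and 13.2 in WT => St2-/- and 22.3, 9.34 and 6.11 in St2-/- => St2-/-. WT => WT replicate 2 was lowest at 2.42 CPM, and its next neighbour had 6.11 CPM. Hottip, a noncoding RNA whose gene lies upstream of the Hoxa13 start on the opposite strand, with 1894 bases between them, and which is known to act on the distal HoxA genes, stood at 14.1, 0.676 and 11.0 CPM in replicates 1 to 3 of WT => WT, 16.6, 27.0 and 10.7 in St2-/- => WT, 9.06, 8.17 and 21.6 in WT => St2-/- and 17.0, 11.8 and 5.49 in St2-/- => St2-/-. It too was lowest in WT => WT replicate 2, at 0.676 CPM, and both were highest in St2-/- => WT replicate 2. Hoxa6 was also lowest in WT => WT replicate 2, at 0.483 CPM, while Hoxa9 there had 142 CPM and Hoxa10 97.6 CPM. In all, 4 of the 11 HoxA members had their lowest value in this tumour, Hoxa2, Hoxa3, Hoxa6 and Hoxa13.

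Across the 28 tested members, the median within-group SD of log2 CPM was 0.80, against 0.31 over all 15060 tested genes, and 22 of 28 lay above that median. Level was not matched in this comparison, and low counts widen the spread by counting error alone. Hoxd3, for example, had 74 reads and Hoxb2 111 reads in all 12 libraries, while Hoxd13 had 40253. Hoxd10 and Hoxd11 had SDs of 1.35 each, with St2-/- => St2-/- replicate 1 lowest in both. Without that library they were 0.80 and 0.75, Hoxd13 was 0.45 in place of 0.85, Hoxd12 was 2.34 in place of 2.54, and the median of the 28 was 0.70, an alternative chosen after seeing the data. Hoxa10, Hoxa5, Hoxb13, Hoxb9, Hoxa3 and Hoxa9 lay below the median of all genes, between 0.21 and 0.29.

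**Figure D3:**
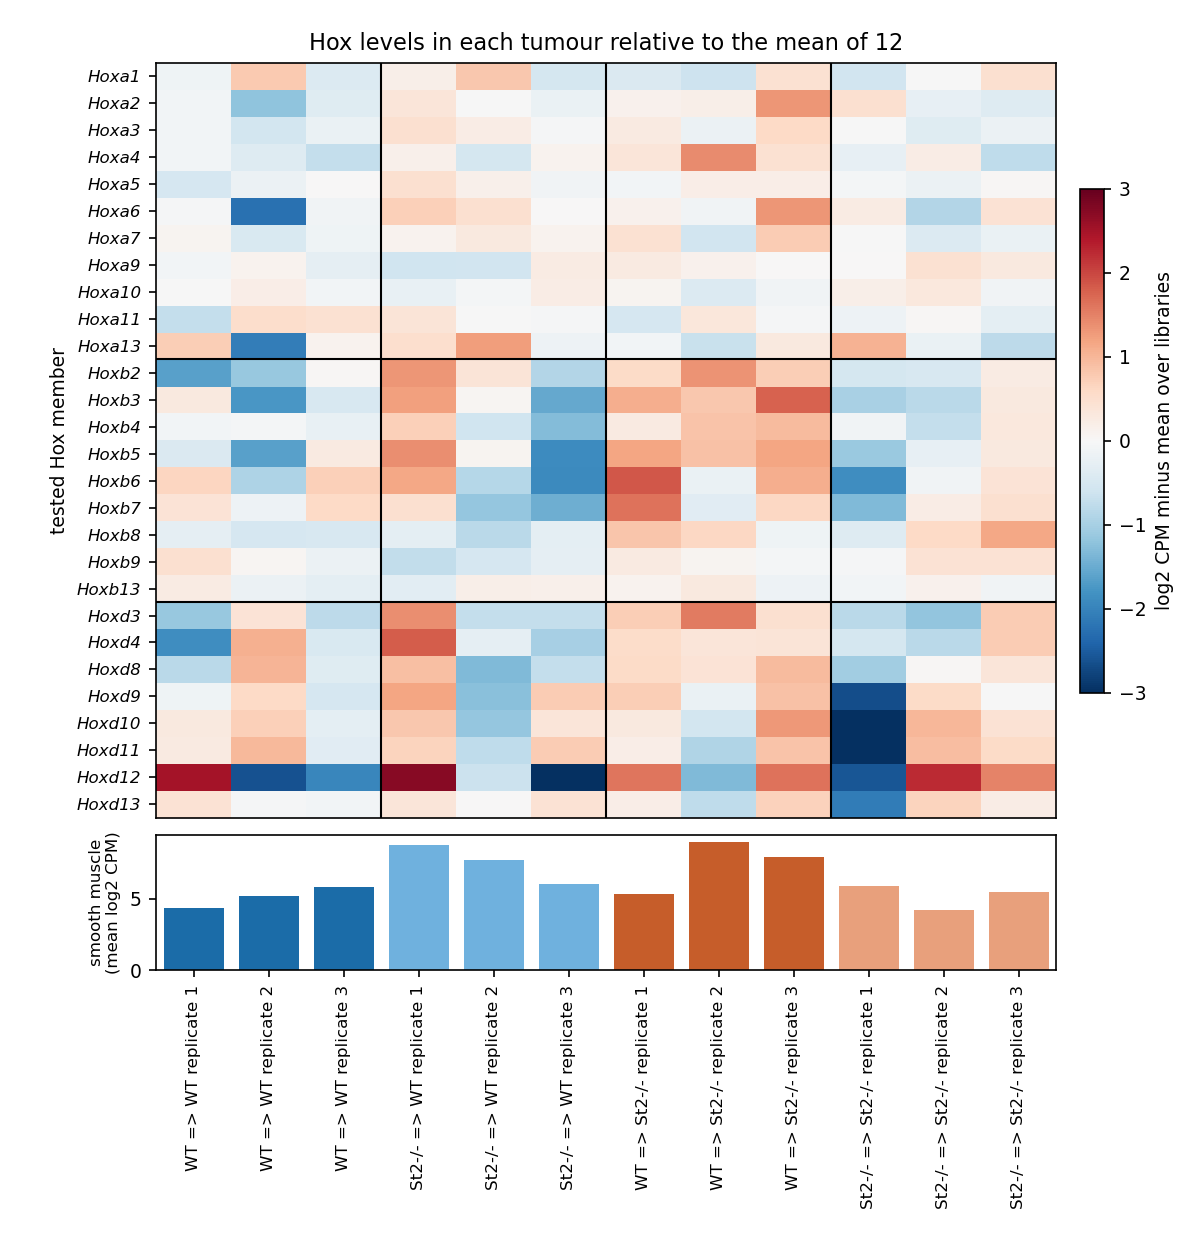
Log2 CPM of the 28 tested members minus each member's mean over 12 libraries (blue lower, red higher, colours end at ±3), above bars of the mean log2 CPM of 6 smooth muscle markers. The low HoxD block in St2-/- => St2-/- replicate 1 and the divided Hoxd12 row stand out.

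The labels name the tissue as tumour, and Epcam, an epithelial surface protein, was at 1104 to 2596 CPM in all libraries. Il1rl1, the gene of ST2, was at 36.5 to 275 CPM in WT hosts and 7.30 to 25.0 CPM in St2-/- hosts, without overlap. Counts per gene do not show which exons these reads came from. Contents besides epithelium varied. The summed level of 6 smooth muscle markers (Acta2, Actg2, Myh11, Des, Cnn1 and Tagln) was 192, 421 and 422 CPM in replicates 1 to 3 of WT => WT, 2725, 1381 and 443 in St2-/- => WT, 292, 3274 and 1538 in WT => St2-/- and 439.5, 185 and 372 in St2-/- => St2-/-. St2-/- => WT replicates 1 and 2 and WT => St2-/- replicates 2 and 3 were between 1381 and 3274 CPM, and all others between 185 and 443 CPM. Krt5 and Trp63, markers of squamous epithelium such as lines the anus, were at 145 and 20.7 CPM in St2-/- => St2-/- replicate 2, against at most 0.783 and 0.431 CPM elsewhere. In bulk tissue, fewer cells of a type and less RNA per cell cannot be told apart.

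The host comparison averaged over marrows sets 6 tumours of St2-/- hosts against 6 of WT hosts, all groups fitted together. Of the 28 tested members 0 passed an adjusted p of 0.05 by edgeR's quasi-likelihood test, where 1.37% of all tested genes did. At an unadjusted p under 0.05 there were 3 members (20.6% of all genes): Hoxb8, Hoxb9 and Hoxa9. The libraries of the host genotypes did not overlap for 0 members and for 2.68% of all genes. Label numbers had 3 digits in all 6 St2-/- hosts and 5 digits in all 6 WT hosts, so that a difference in cohort, if the numbers mark one, cannot be told apart from the host's genotype. The p-values measure the spread between tumours of these mice.

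Hoxb8, a central gene that keeps myeloid progenitors dividing when forced on, had the smallest p. It stood at 3.09, 2.61 and 2.63 CPM in replicates 1 to 3 of WT => WT, 3.02, 2.06 and 3.04 in St2-/- => WT, 6.77, 5.83 and 3.43 in WT => St2-/- and 2.83, 5.78 and 8.66 in St2-/- => St2-/-. The highest WT-host library had 3.09 CPM, and 5 of the 6 St2-/- host libraries were above it. The exception, St2-/- => St2-/- replicate 1, had 2.83 CPM. The log2 fold change was 1.01 (SE 0.30, adjusted p = 0.117). By the DESeq2 Wald test it was 1.02 with an adjusted p of 0.0237, past the threshold. That test called 1196 of the 15060 genes in this comparison.

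Hoxb9 and Hoxa9, posterior genes known from the rib cage and from blood progenitors, came next. Hoxb9 stood at 147, 109 and 92.7 CPM in replicates 1 to 3 of WT => WT, 63.2, 73.5 and 87.0 in St2-/- => WT, 126, 111 and 100.5 in WT => St2-/- and 103, 142 and 141 in St2-/- => St2-/-. Within St2-/- marrow its 3 tumours of St2-/- hosts were all above the 3 of WT hosts, and within WT marrow the groups overlapped. The log2 fold change between hosts was 0.37 (SE 0.14, adjusted p = 0.183 by edgeR). Hoxa9 stood at 125, 142 and 109 CPM in replicates 1 to 3 of WT => WT, 87.8, 89.2 and 156 in St2-/- => WT, 159.7, 144 and 134 in WT => St2-/- and 132, 181 and 163 in St2-/- => St2-/-. Its 2 lowest libraries were St2-/- => WT replicates 1 and 2, and the host groups overlapped. Hoxa9 differed by 0.37 (SE 0.16, adjusted p = 0.221 by edgeR). Both passed with limma-voom, at log2 fold changes of 0.52 (adjusted p = 0.0272) for Hoxb9 and 0.51 (adjusted p = 0.0258) for Hoxa9. Limma-voom called 1834 of the 15060 genes in this comparison. Hoxa9 also passed by edgeR without St2-/- => WT replicate 3, at 0.53 (adjusted p = 0.0457).

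The other 5 members chosen by p in this comparison had log2 fold changes of 0.46 to 0.58, with adjusted p of 0.317 to 0.593. On leaving out 1 library they ranged from 0.28 to 0.69 for Hoxa2, 0.35 to 0.69 for Hoxa4, 0.35 to 1.14 for Hoxb2, 0.25 to 0.96 for Hoxb3 and 0.28 to 0.87 for Hoxb4. They were Hoxa2, Hoxb2 and Hoxb3, which pattern the hindbrain and pharyngeal arches, and Hoxa4 and Hoxb4, which pattern the neck. Hoxb4, also known from blood stem cells, stood at 2.66, 2.71 and 2.39 CPM in replicates 1 to 3 of WT => WT, 4.74, 1.80 and 1.04 in St2-/- => WT, 3.47, 5.22 and 5.63 in WT => St2-/- and 2.60, 1.66 and 3.56 in St2-/- => St2-/-. Its host groups overlapped, and the other 4 are given by library below. Paralogue group 13 did not differ by more than its error. The log2 fold change was 0.053 (SE 0.14) for Hoxb13, -0.13 (SE 0.39) for Hoxd13 and -0.25 (SE 0.47) for Hoxa13. Hoxc13 was not tested. Over the 28 members the median was 0.18 with 20 above 0, against -0.0015 over all tested genes. All 9 tested HoxB members lay above 0, as did 7 of 11 HoxA members and 4 of 8 HoxD members.

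The host comparison was also made within each marrow. Under WT marrow, 0 of 28 members were called (0.159% of all genes), and 6 had an unadjusted p under 0.05 (16.7% of all genes). Under St2-/- marrow, 0 were called (0.0598% of all genes), and 3 had such a p (12% of all genes). DESeq2 and limma-voom called 0 members under WT marrow. Under St2-/- marrow DESeq2 called Hoxb9 (0.79, adjusted p = 0.0345), and limma-voom called Hoxb9 (0.93, adjusted p = 0.0148) and Hoxa9 (0.72, adjusted p = 0.0239). How many of all genes these tools called was counted only in the host comparison averaged over marrows. Their counts of members here and in the comparisons below thus stand without a share of all genes. By edgeR Hoxb9 differed by 0.79 there (SE 0.20, adjusted p = 0.254).

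Under WT marrow 5 of the 6 anterior and all 11 central members had fold changes above 0, none of them called, and 6 of the 11 posterior members did. For 8 members, all of them anterior or central, every WT => St2-/- library was above every WT => WT library, which held in this direction for 7.84% of all genes and in either direction for 17.7%. They were Hoxa2, Hoxa4, Hoxb2, Hoxb3, Hoxb4, Hoxb5, Hoxb8 and Hoxd3. Hoxb3 stood at 4.12, 0.870 and 2.31 CPM in replicates 1 to 3 of WT => WT, 7.93, 3.43 and 1.04 in St2-/- => WT, 7.28, 5.91 and 11.7 in WT => St2-/- and 1.60, 1.82 and 4.10 in St2-/- => St2-/-. The libraries WT => St2-/- replicate 3 and St2-/- => WT replicate 1 were its highest. Its log2 fold change under WT marrow was 1.76 (SE 0.73, adjusted p = 0.266). Hoxb2 stood at 0.0859, 0.193 and 0.637 CPM in replicates 1 to 3 of WT => WT, 1.81, 0.857 and 0.260 in St2-/- => WT, 1.02, 1.83 and 1.14 in WT => St2-/- and 0.382, 0.396 and 0.773 in St2-/- => St2-/-, so that it rested on few reads, and it differed by 2.06 (SE 0.79, adjusted p = 0.234). Of the annotated exon bases of Hoxb3 52.9% and 27.3% of those of Hoxb2 are shared with Hoxb3os on the opposite strand, and the strand setting of the counting is not given, so their reads may include that transcript. Hoxd3 differed by 1.79 (SE 1.04, adjusted p = 0.394) on 74 reads in all 12 libraries, and shares 62.8% of its exon bases with other genes, 53.1% with Gm28230 on the same strand. Hoxa4 stood at 1.80, 1.45 and 1.11 CPM in replicates 1 to 3 of WT => WT, 2.15, 1.29 and 2.08 in St2-/- => WT, 2.54, 5.48 and 2.72 in WT => St2-/- and 1.60, 2.29 and 1.08 in St2-/- => St2-/-, and differed by 1.29 (SE 0.44, adjusted p = 0.198). Hoxa2, at 4.21, 1.84 and 3.42 CPM in replicates 1 to 3 of WT => WT, 5.77, 4.37 and 3.82 in St2-/- => WT, 4.82, 5.04 and 11.4 in WT => St2-/- and 6.27, 3.72 and 3.32 in St2-/- => St2-/-, differed by 1.16 (SE 0.45, adjusted p = 0.239). Both had all 3 WT => St2-/- libraries above all 3 WT => WT libraries, and both overlapped under St2-/- marrow.

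Under St2-/- marrow the same contrast had a median of -0.25 over the 28 members with 7 above 0, against 0.48 with 22 above 0 under WT marrow. The median of the 6 tested anterior members was -0.55 under St2-/- marrow and 1.46 under WT marrow, and that of the 11 posterior members was -0.039 and 0.032. The libraries did not overlap for 2 members, Hoxb9 higher and Hoxa7 lower, and for 23.2% of all genes. In the test of the difference between the host effects, 0 of 28 members and 0% of all genes were called, and DESeq2 and limma-voom called 0 members. An unadjusted p under 0.05 was found for 6 members (7.6% of all genes), with Hoxb9 above 0 and Hoxa3, Hoxa4, Hoxa5, Hoxb2 and Hoxb3 below. Hoxb9 had 0.83 (SE 0.28) and Hoxa3 -0.95 (SE 0.32), both with an adjusted p of 0.559.

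Smooth muscle markers moved with these comparisons. Their median log2 fold change was 3.02 for the host effect under WT marrow and -2.66 under St2-/- marrow, with 0 of 6 called in either. With the mean log2 CPM of these markers as a covariate, the median of the 6 anterior members under WT marrow was 0.74 in place of 1.46, and under St2-/- marrow 0.14 in place of -0.55. The median of the 11 central members was 0.70 in place of 0.84 under WT marrow and 0.091 in place of -0.26 under St2-/- marrow. That of the 11 posterior members was 0.41 in place of 0.032 under WT marrow and -0.32 in place of -0.039 under St2-/- marrow. Anterior and posterior medians thus lay closer together under WT marrow. Under St2-/- marrow their order turned, with the anterior median above the posterior one. The median of all 28 was then 0.61 in place of 0.48 under WT marrow, where 24 members lay above 0 in place of 22. Under St2-/- marrow it was 0.021 in place of -0.25, with 15 members above 0 in place of 7. Hoxb3 under WT marrow was 1.22 (adjusted p = 0.804) and Hoxa4 1.14 (adjusted p = 0.636) in this fit. WT => St2-/- replicate 1, with a muscle sum of 292 CPM, had 7.28 CPM of Hoxb3 and the highest Hoxb6, at 22.3 CPM, and Hoxb7, at 9.31 CPM. Whether muscle content has a part in these Hox values was not tested. The highest muscle sums all lay in St2-/- => WT and WT => St2-/-, so muscle content cannot be fully told apart from group.

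**Figure D4:**
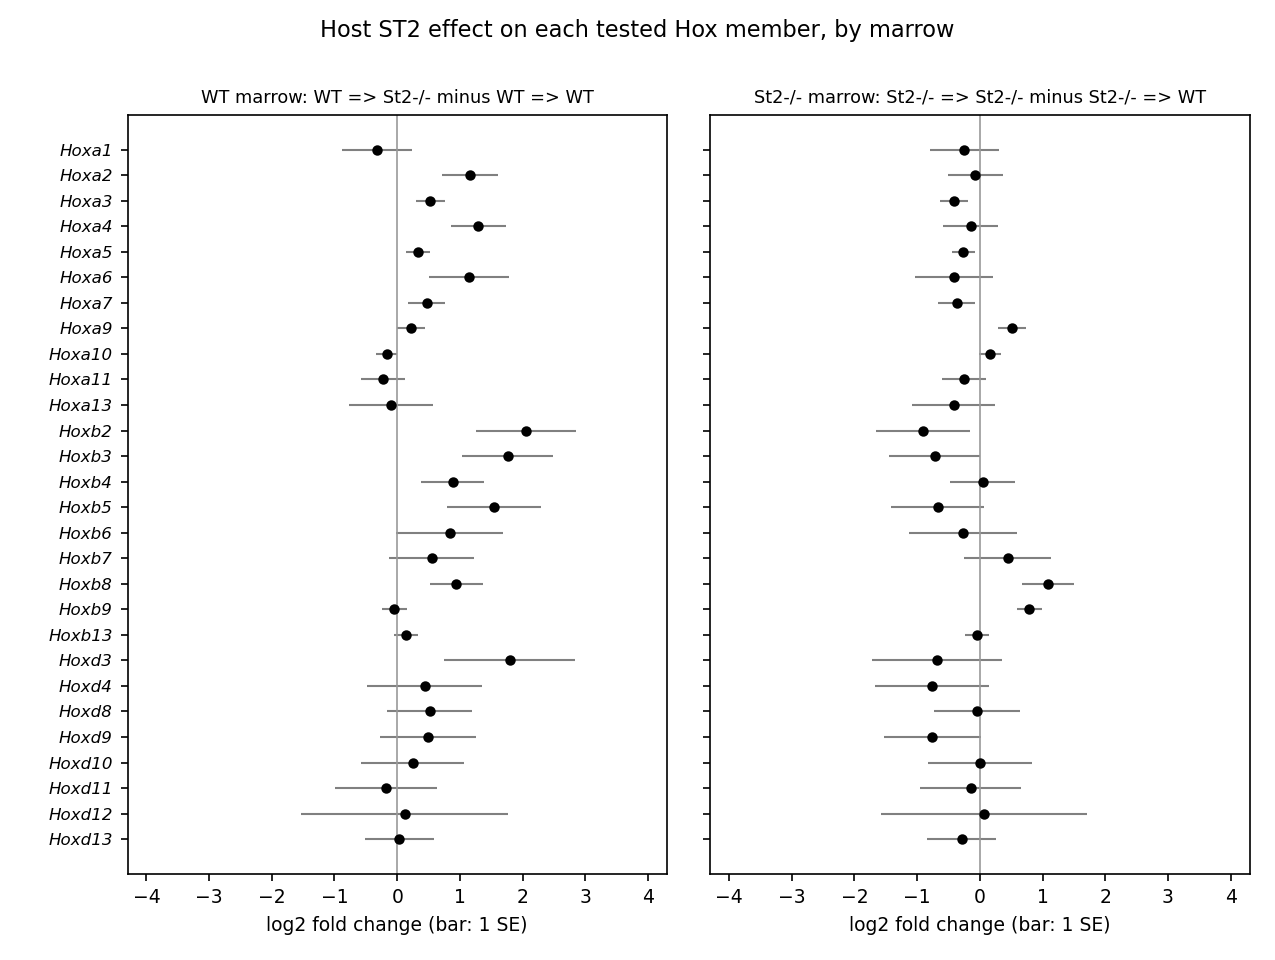
Log2 fold change between hosts (St2-/- minus WT, bars are 1 SE) of the 28 tested members, under WT marrow on the left and St2-/- marrow on the right. Hoxb2 (2.06), Hoxd3 (1.79) and Hoxb3 (1.76) lie highest under WT marrow, and Hoxb8 and Hoxb9 lie above 0 under St2-/- marrow. The 2 panels share no library.

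The marrow comparison averaged over hosts sets 6 tumours under St2-/- marrow against 6 under WT marrow. Of the 28 members 0 were called, as were 0% of all genes, and 0 had an unadjusted p under 0.05, against 2.76% of all genes. DESeq2 and limma-voom called 0 members. Groups did not overlap for 0 members and for 0.113% of all genes. Hoxb7, which acts in the central axis and is often high in tumours, had the smallest p. It stood at 3.95, 2.61 and 4.46 CPM in replicates 1 to 3 of WT => WT, 4.14, 1.20 and 0.954 in St2-/- => WT, 9.31, 2.26 and 4.57 in WT => St2-/- and 1.07, 3.40 and 4.10 in St2-/- => St2-/-, and the marrow groups overlapped. Its log2 fold change was -0.86 (SE 0.49, adjusted p = 0.999). Its neighbour Hoxb6, at 9.53, 3.09 and 10.1 CPM in replicates 1 to 3 of WT => WT, 13.7, 3.26 and 1.47 in St2-/- => WT, 22.3, 5.22 and 13.1 in WT => St2-/- and 1.53, 5.62 and 8.12 in St2-/- => St2-/-, had the same size of difference (-0.86, SE 0.61, adjusted p = 0.999). For both, WT => St2-/- replicate 1 was highest and overlap between the marrow groups was wide. Hoxb9 (-0.22) and Hoxb4 (-0.45) followed.

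Within WT hosts, 0 members were called (0% of all genes) for marrow genotype, and 3 had an unadjusted p under 0.05 (6.04% of all genes). Hoxa3, Hoxa6 and Hoxa7 were higher and Hoxb9 lower without overlap, 4 members, as were 10.3% of all genes in either direction. Within St2-/- hosts, 0 were called (0% of all genes), and 2 had an unadjusted p under 0.05 (4.05% of all genes). There 5 members, Hoxa4, Hoxb2, Hoxb3, Hoxb5 and Hoxd8, were lower without overlap, where 4.23% of all genes were lower and 8.8% differed in either direction. DESeq2 and limma-voom called 0 members in both. These comparisons use the same libraries as the host comparisons. The muscle markers moved by 2.85 and -2.83 (medians) in them, and with their score as a covariate the median of the 6 anterior members was 0.10 in place of 0.66 in WT hosts and -0.36 in place of -1.01 in St2-/- hosts. The median of the 11 central members was -0.0067 in place of 0.32 and -0.43 in place of -0.81. That of the 11 posterior members was 0.33 in place of -0.031 and -0.29 in place of 0.0034. A part of muscle content in these differences was not tested either.

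Loss of ST2 in both compartments, St2-/- => St2-/- against WT => WT, gave 0 called members (0.0266% of all genes). Only Hoxb8 had an unadjusted p under 0.05 (13.7% of all genes), at 1.05 (SE 0.42, adjusted p = 0.316). Members without overlap numbered 0, against 23.8% of all genes. DESeq2 and limma-voom called 0 members here as well. Muscle markers had a median of 0.076 in this comparison, and the 28 members had 0.064.

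Genes that work with or upstream of the Hox clusters were taken from lists named by function. All 9 Pbx, Meis and Pknox genes, whose products join HOX proteins on DNA, were tested, with 0 called in the host comparison averaged over marrows and a median of 0.38. Under WT marrow Meis1 had 1.65 (SE 0.52, adjusted p = 0.184), and Meis1 was highest in WT => St2-/- replicate 2, at 9.91 CPM, the library with the highest muscle sum. Of 21 Polycomb and Trithorax genes, all tested, 0 were called, 10 had an unadjusted p under 0.05 (20.6% of all genes) and 18 lay above 0, with a median of 0.27 and a lowest adjusted p of 0.0599. Among them Cbx2, a Polycomb subunit that binds methylated histone, had 0.70 (SE 0.19, adjusted p = 0.102). Kmt2a, a Trithorax methyltransferase that keeps Hox genes active, had 0.47 (SE 0.15, adjusted p = 0.141). Kdm6a, also among the 10, had 0.35 (SE 0.15, adjusted p = 0.220). It stood at 70.7 CPM in WT => St2-/- replicate 3, the female mouse, and at 30.9 to 49.7 CPM in the males. Whether sex has a part was not tested. Of the ParaHox and caudal genes, 3 of 6 were tested and 0 called, and Cdx2, the intestinal master factor, had -0.72 (SE 0.31, adjusted p = 0.227). Of 10 retinoic acid genes 7 were tested and 0 called, with Rarb, a receptor, at 1.47 (SE 0.58, adjusted p = 0.2002).

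The Hox clusters also carry Evx1 and Evx2 at their ends and several noncoding transcripts. Evx1, next to Hoxa13, stood at 20.0 to 104 CPM, and Evx2, next to Hoxd13, at 0.535 to 1.86 CPM. Both were tested and 0 were called. Of 10 noncoding genes listed, 4 were in the table and 2 were tested, Hottip and Hoxa11os, with 0 called. Hoxa11os had 15127 reads in all and Hoxa11 had 984, and 35.0% of the exon bases of Hoxa11 are shared with it on the opposite strand. Hoxa11os ran from 40.8 CPM in WT => WT replicate 2 to 209 CPM in WT => St2-/- replicate 3, and Hoxa11 from 4.04 to 9.76 CPM, highest in that same WT => WT replicate 2. Without the strand setting, reads in the shared bases cannot be told apart.

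Other genes of colon position were set beside the Hox values. Cdx1 and Cdx2, factors of the intestine, had reads in all 12 libraries. Of 5 genes listed for the distal colon 4 were in the table and tested, and all had lower means in St2-/- hosts, with 1 of 4 called and a median of -2.03. Genes of other lists were lower there as well, 0 of them called by edgeR. All 6 epithelial genes lay below 0 (median -0.44), with Krt20, a keratin of mature surface cells, at -1.67 (SE 0.47, adjusted p = 0.105). Car4, a carbonic anhydrase of the colon, had -2.12 (SE 0.74, adjusted p = 0.158), and Aqp4, a water channel listed for the proximal colon, -1.19 (SE 0.54, adjusted p = 0.243). The called gene of the distal list was Atp12a, the colonic proton and potassium pump, at 786, 47.8 and 231 CPM in replicates 1 to 3 of WT => WT, 327, 1004 and 152 in St2-/- => WT, 81.7, 21.0 and 36.3 in WT => St2-/- and 35.4, 30.7 and 31.5 in St2-/- => St2-/-. The 6 values of St2-/- hosts lay between 21.0 and 81.7 CPM, and WT => WT replicate 2 at 47.8 CPM lay among them. Its log2 fold change was -3.43 (SE 0.69) with an adjusted p of 0.0399 by edgeR. That call was lost on leaving out any of 9 of the 12 libraries, and kept without WT => WT replicate 2, St2-/- => WT replicate 3 or WT => St2-/- replicate 1 (adjusted p 0.0200 to 0.140 over the 12). Aqp8, a water channel, stood at 388, 7.63 and 44.9 CPM in replicates 1 to 3 of WT => WT, 113, 496 and 30.4 in St2-/- => WT, 18.5, 44.9 and 24.4 in WT => St2-/- and 26.7, 31.5 and 12.9 in St2-/- => St2-/-. Its difference was -2.75 (SE 0.88, adjusted p = 0.139). Scnn1g, a subunit of the epithelial sodium channel, had -1.32 (SE 0.59, adjusted p = 0.235). Of these genes and the paralogue 13 members, WT => WT replicate 2 was lowest in Aqp8 (7.63 CPM), Scnn1b (4.15 CPM), another sodium channel subunit, and Hoxa13 but not in Hoxb13 or Hoxd13, and St2-/- => WT replicate 2 was highest in Atp12a, Aqp8, Scnn1b, Scnn1g, Hoxa13 and Hottip. Of 7 small intestine markers, Gata4, Apoa1, Apoa4, Lct and Sis were at most 1.63 CPM in every library. Fabp6, an ileal bile acid carrier, was at most 13.9 CPM, and Onecut2, a transcription factor, ran from 6.81 to 157 CPM. Between hosts Fabp6 had -1.56 (SE 0.51, adjusted p = 0.146) and Onecut2 1.74 (SE 0.59, adjusted p = 0.152).

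**Figure D5:**
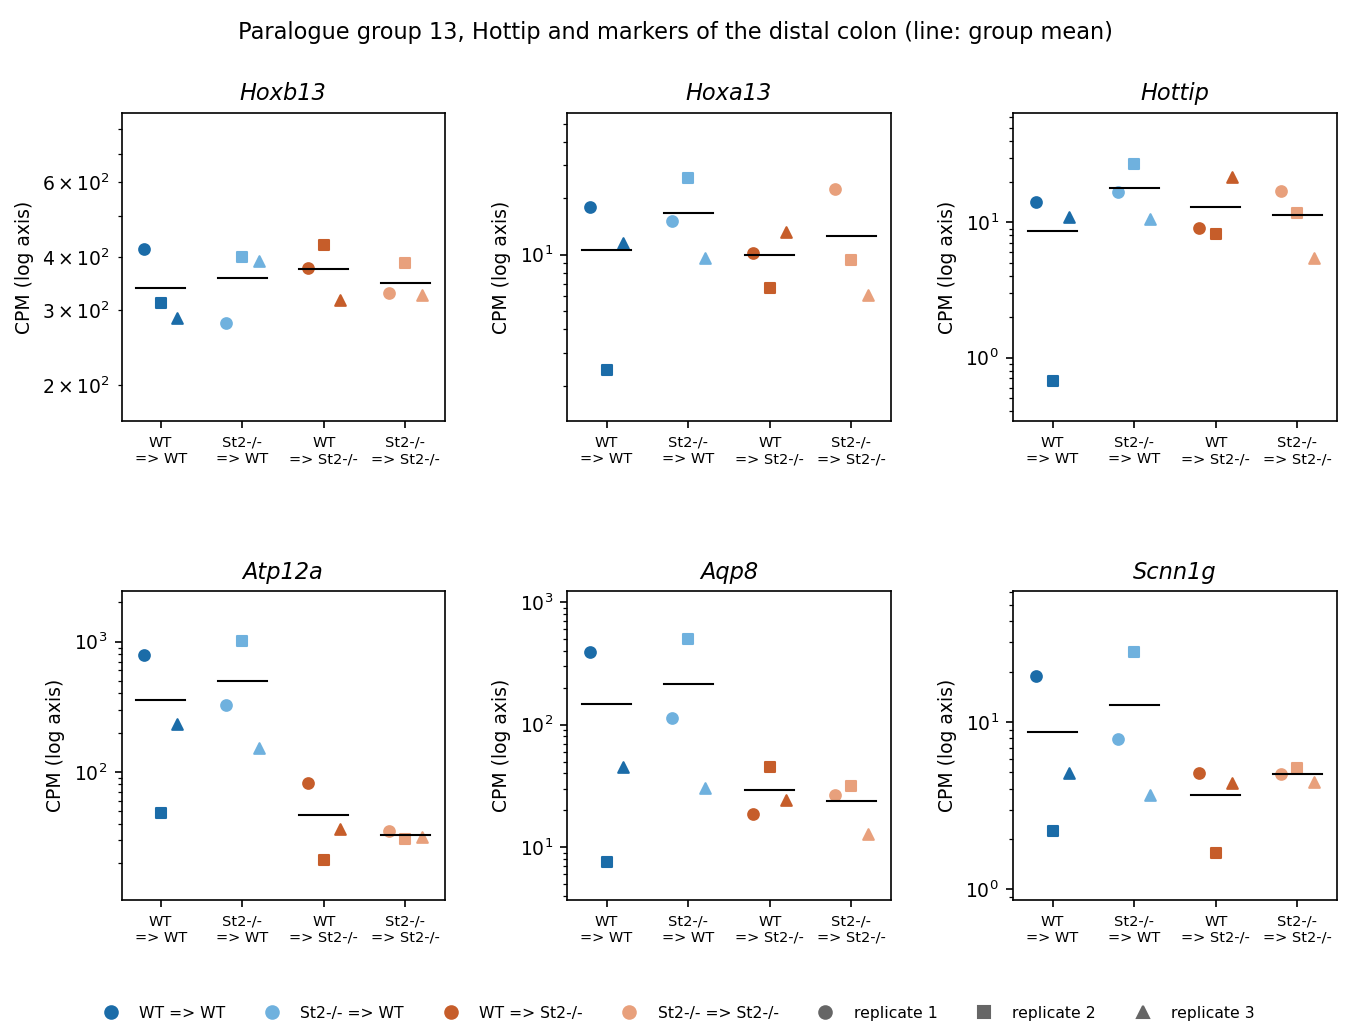
CPM (log axis) of Hoxb13, Hoxa13, Hottip and 3 distal colon genes in each tumour, with a line at the group mean. Atp12a lies between 21.0 and 81.7 CPM in the St2-/- hosts, while the groups overlap for Hoxb13, and WT => WT replicate 2 is lowest for Hoxa13, Hottip and Aqp8.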

How the data were processed

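RNA of 12 snap-frozen colon tumours was sequenced as single-end reads of 50 bases from TruSeq RNA libraries, per the labels' protocols. The submitters' processing notes name TopHat, Bowtie2 and GRCm38 (mm10). Not given in the sources used here are the counting tool, its annotation and its strand setting. The values as deposited are raw counts of reads per gene in 1 table. Left out were 5 summary entries (49.8% to 59.6% of a library's total), and 0 columns lacked a sample. Gene counts per library were 10293818 to 12962496, with intervals and floors covering counting error only.

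In R 4.3.3, edgeR 4.0.16 was fitted to all 12 libraries with 1 coefficient for each of 4 groups (TMM, robust quasi-likelihood). The filter filterByExpr with a minimum count of 10 kept 15060 genes. Benjamini-Hochberg adjustment ran over all of them, tests were two-sided, and a gene was called at an adjusted p under 0.05. CPM use TMM-scaled library sizes. Each log2 fold change is the model's, with its SE. Exon lengths came from GENCODE annotation on GRCm38, and promoters from RefSeq. Alternatives used DESeq2 1.42.0, limma 3.58.1 (voom with quality weights), other scaling and filters, the replicate number, weeks, muscle or leukocyte scores as terms, only the groups compared, and left-out libraries. On simulated data for the averaged host comparison (14887 genes), the edgeR script recovered 51% of 2-fold and 91.8% of 4-fold changes, with 4 of 144 calls false. The changes were planted in genes picked at random. Recovery among Hox members, whose median within-group SD was 0.80 against 0.31 over all tested genes, was not measured. Members described with values in every library were, by rule, the 8 with the smallest p between hosts, the 4 with the smallest p between marrows, the 2 highest per kb in each cluster and paralogue group 13. Hoxd11, Hoxd12 and the neighbours of the clusters were added after their values had been seen. The members and lists were chosen with earlier results of these data known. Figures were drawn with Python 3.11.15 and matplotlib 3.10.9.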

Additional observations from a re-analysis of the deposited data

How the results depend on the processing

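The number of members called was 0 in all 8 comparisons by edgeR, and stayed 0 under every alternative run except in 2 of them. In the host comparison averaged over marrows, DESeq2 called 1 member, limma-voom called 2, and leaving out 1 library gave 0 to 1. In the host comparison under St2-/- marrow, DESeq2 called 1 and limma-voom 2, and their calls over all genes were not counted there. With the replicate block 0 members were called in each comparison, and Hoxb8 had a log2 fold change of 1.02. Same-numbered libraries correlated at -0.44 to 0.31, so the numbers were not taken to pair the mice, and the Atp12a call was lost with the block (adjusted p = 0.0704). Over all genes, the averaged host comparison called 206 genes by edgeR, 1196 by DESeq2, 1834 by limma-voom, 321 with the muscle score, 8 without WT => St2-/- replicates 2 and 3 together, and 80 (without St2-/- => St2-/- replicate 1) to 484 (without WT => St2-/- replicate 1) on leaving out 1 library. Among single described members in the averaged host comparison, directions turned for those near 0. In the host comparison under St2-/- marrow, the median of the 28 members (-0.25) was 0.021 with the muscle score. Hoxa10 (-0.0039) was 0.11 without WT => St2-/- replicates 2 and 3 together, 0.047 with limma-voom and -0.056 to 0.061 on leaving out 1 library. Hoxb13 (0.053) was -0.025 with the leukocyte score and -0.022 to 0.15 on leaving out 1 library. Hoxd10 (0.12) was -0.0030 without those 2 replicates and -0.21 to 0.40 on leaving out 1 library. Hoxd13 (-0.13) ranged from -0.38 to 0.12 and Hoxa13 (-0.25) from -0.59 to 0.063 on leaving out 1 library. The cause was not tested. The number of members counted as expressed was 28 by the filter, 26 by a mean CPM of at least 1, 27 by a CPM of at least 1 in at least 3 libraries and 32 by any read.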
